A study of Homo sapiens with 9 samples.

Results

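MiaPaCa2 cells exposed for 24 h to the supernatant of naive pancreatic stellate cells were set against the control at 24 h. These are 2 of the 9 arrays of the series and the only pair with the same stated time. MiaPaCa2 is an established human pancreatic carcinoma line. The exposed array comes from cells given the supernatant 24 h before harvest. The labels call the other array a control at 24 h, although the title adds the treatment words of the exposed arrays, and they do not state what its cells received. The other 7 arrays, from cells exposed for 1, 2, 3, 4, 5, 6 and 7 h, were used only to show where each value lay among exposed cells. Total RNA was hybridised to Affymetrix arrays, and values are log2 expression after robust multi-array averaging (RMA). With 1 array a side there is no replicate check, no p-value is given, and a difference (24 h minus control, log2) describes these 2 arrays. Hours of exposure cannot be separated from time in culture, and nothing in the labels says that the arrays came from separate cultures. Of 19775 genes with their own probe set, the 12402 with a mean of at least 5 over the 9 arrays were kept. All of these arrays but the control are exposed. A gene dim in the control could thus pass through the exposed arrays, while one bright in the control alone was less likely to pass. The same mean chose each gene's probe set, so counts of higher and lower genes carry this limit.

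Pancreatic stellate cells are the fibroblast-like cells that lay down the dense matrix around pancreatic carcinomas, and they secrete growth factors, cytokines and proteases that act on neighbouring tumour cells. A tumour cell that receives such signals can alter its division, its matrix-degrading enzymes and its lipid and amino acid metabolism. Dividing cells transcribe DNA replication genes in S phase and a further set of genes for spindle, kinetochore and cytokinesis proteins in G2 and mitosis. FOXO factors, which growth factor signalling holds out of the nucleus, drive another set that includes CCNG2, IRS2 and KLF9.

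Medians of the 2 arrays over all probe sets were close, at 4.94 for both. As a sign of RNA quality, ACTB's 3' probe set exceeded its 5' probe set by 1.90 at 24 h and 1.86 in the control. Both lay inside the hourly range of 1.59 to 2.24, or to 1.97 without the 5 h array. For GAPDH the excess was 0.134 at 24 h and 0.154 in the control. Its hourly values ran from 0.099 to 0.195, or to 0.148 without the 5 h array, so the control exceeded all hourly arrays but that one. Probe sets for the bacterial poly-A transcripts, which are added to RNA before labelling in the standard Affymetrix protocol, averaged 7.88 at 24 h and 5.91 in the control. All 12 were higher at 24 h, by 1.56 to 2.37, and their hourly means ran from 6.06 to 7.05. Hybridisation controls, added after labelling, differed by 0.22. The part of this gap in the results was not tested. The labelled cell type was borne out in part: KRT18 (13.55 at 24 h, 13.39 in the control), KRT8, KRT19 and VIM were bright, whereas CDH1 and EPCAM had means under 5.

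Genes of cell division were lower in the 24 h array, and MMP1 and members of the FOXO-type list were among the genes that were higher. At least 2-fold differences were found for 58 genes higher (0.468% of genes) and 86 lower (0.693%). At 1.5-fold the counts were 391 higher (3.15%) and 425 lower (3.43%). The median difference over all genes was 0.02, the SD across genes was 0.32, and the lower and upper 5% of genes began at -0.50 and 0.50. The 24 h array was much nearer to the other exposed arrays: it was 2-fold apart from the hourly arrays in 5 to 21 genes, apart from the 5 h array, where 131 genes differed. Against the control the number was 144.

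**Figure D1:**
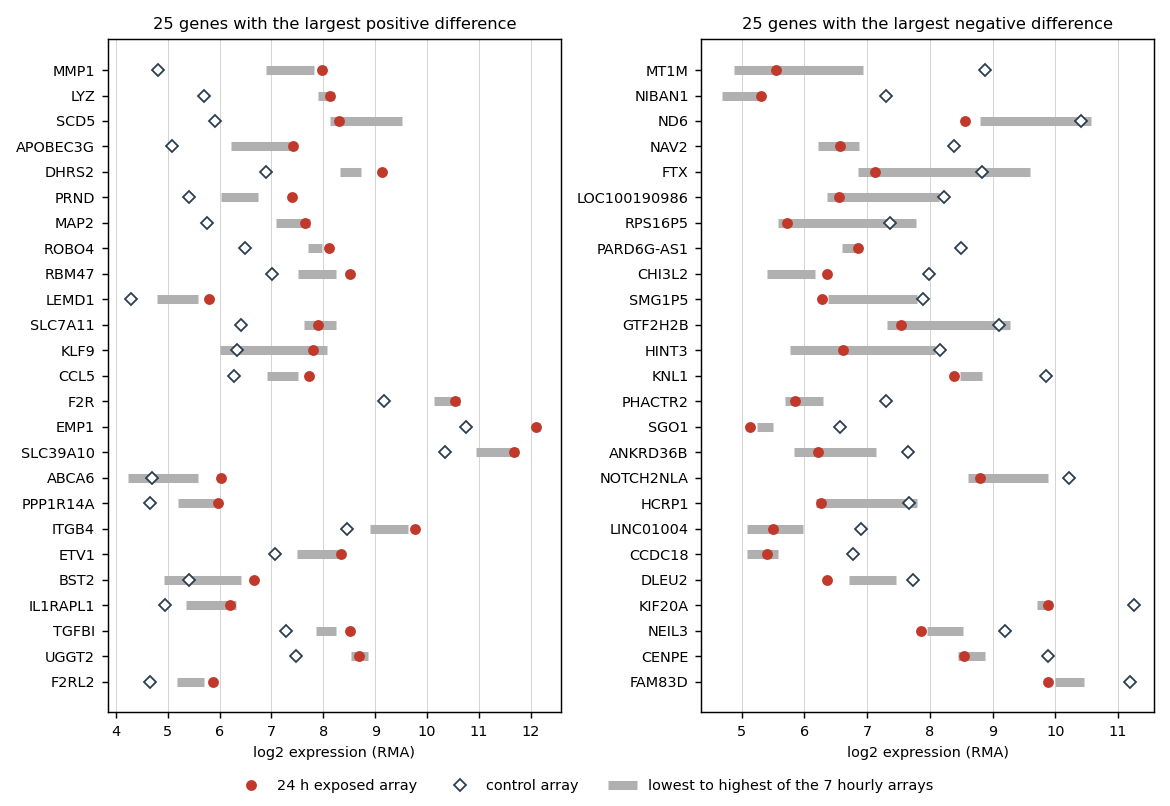
Log2 expression of the 25 genes with the largest positive difference (left) and the 25 with the largest negative difference (right) in the 24 h array (red circles) and the control array (open diamonds). Grey bars span the lowest to highest of the 7 hourly exposed arrays, each point is 1 array, and in most rows the red circle lies on or next to the bar while the diamond stands off it, as for MMP1 (7.97 at 24 h, 4.81 in the control).

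Genes for secreted and surface proteins were among the highest at 24 h. MMP1, the collagenase of fibrillar collagen, measured 7.97 at 24 h and 4.81 in the control (8.94-fold), with hourly values from 6.89 to 7.82. Its control value lay under the array's median of 4.94, so the fold is set against a dim value. CCL5, a chemokine that attracts T cells and monocytes, measured 7.72 at 24 h and 6.28 in the control (2.73-fold). Its other 2 bright probe sets gave 1.23 and 1.02. The thrombin receptor gene F2R measured 10.54 at 24 h and 9.16 in the control (2.59-fold). F2RL2, a further member of the protease-activated receptor family, measured 5.87 at 24 h and 4.65 in the control (2.33-fold), again a control value under the array's median. ITGB4, the integrin chain that anchors epithelial cells to laminin, measured 9.77 at 24 h and 8.46 in the control (2.48-fold). TGFBI, a matrix protein named for its induction by TGF-beta, measured 8.51 at 24 h and 7.28 in the control (2.35-fold). For MMP1, CCL5, F2RL2, ITGB4 and TGFBI the 24 h value was above all 7 hourly values and the control below all of them. These genes were chosen by the difference between the 2 arrays, so such placing is partly built in. The 2 arrays lay outside the hourly range on opposite sides in 27 of the 58 higher genes (46.6%) and in 8.23% of all genes.

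Further genes of the 25 highest had varied roles. SLC39A10, a zinc importer, measured 11.66 at 24 h and 10.34 in the control (2.51-fold). PPP1R14A, an inhibitor of myosin phosphatase, measured 5.97 at 24 h and 4.66 in the control (2.49-fold). The ETS transcription factor ETV1 measured 8.35 at 24 h and 7.07 in the control (2.43-fold), although its other 3 bright probe sets gave only 0.29 to 0.55. RBM47, an RNA-binding protein, was higher in all 3 of its bright probe sets (1.52, 1.08 and 0.40). DHRS2, a short-chain reductase, measured 9.12 at 24 h, above every hourly array (8.32 to 8.73), and 6.89 in the control. BST2, the antiviral protein tetherin, measured 6.66 at 24 h and 5.40 in the control, which here lay inside the hourly range of 4.92 to 6.41. ABCA6, an ABC transporter, likewise had its control value (4.70, against 6.03 at 24 h) inside the hourly range. IL1RAPL1 (1.24), UGGT2 (1.23), LEMD1 (2.84-fold) and PRND (1.97) were also among the 25. The other bright probe sets of UGGT2 disagreed, at 0.85 and -0.32. The control values of PPP1R14A, ABCA6 and LEMD1 (4.29) lay under the array's median of 4.94, so their folds are set against dim values.

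The lowest genes fell into unlike kinds: mitotic genes, noncoding or pseudogene transcripts, and single genes such as MT1M. KNL1, the scaffold of the outer kinetochore, measured 8.39 at 24 h and 9.84 in the control (2.73-fold lower). SGO1, which protects centromeric cohesion, measured 5.14 at 24 h and 6.57 in the control (2.69-fold lower). The kinesin genes KIF20A and CENPE were 2.57-fold and 2.52-fold lower. NEIL3, a DNA glycosylase active in dividing cells, measured 7.86 at 24 h and 9.20 in the control, and FAM83D, a spindle protein, 9.88 at 24 h and 11.19 in the control. In KNL1, SGO1, NEIL3 and FAM83D the 24 h value lay below all hourly arrays and the control above all of them. Such placing on opposite sides, partly built in by the choice of genes, was seen in 30 of the 86 lower genes (34.9%). Over all genes it was seen in 8.23%. PHACTR2, an actin-binding phosphatase regulator, was lower in all 3 bright probe sets (-1.44, -0.60 and -1.14). CHI3L2, a chitinase-like secreted protein, measured 6.37 at 24 h and 7.99 in the control.

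Mitotic genes were lower together. Of 47 listed genes of G2/M and mitosis, all 47 were measured and all 47 were lower at 24 h, 43 of them by at least 1.5-fold and 15 by at least 2-fold. The list's median was -0.88, against 0.02 over all genes. In 46 of the 47 genes the control lay above all 7 hourly arrays. The 24 h value lay inside the hourly range in 30 and below it in 16. Over all 12402 genes the control lay above the hourly arrays in 3278, and the 24 h value below them in 1783. A lower share of dividing cells and less RNA per dividing cell cannot be told apart in a bulk sample. The list was drawn up with earlier results of these arrays known.

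**Figure D2:**
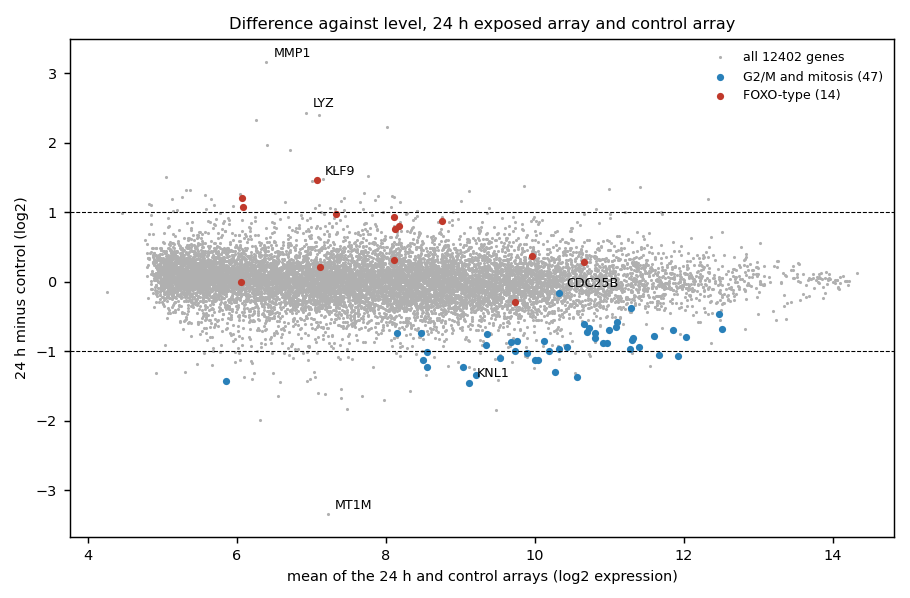
Difference (24 h minus control, log2, vertical) against the mean of the 2 arrays (log2 expression, horizontal) for 12402 genes (grey), with the 47 genes of G2/M and mitosis in blue and the 14 measured FOXO-type genes in red. Dashed lines mark 2-fold, every blue point lies below 0 and CDC25B is the one nearest to it, at -0.16.

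Genes of each role within mitosis were lower. Among the 10 kinases, cyclins and phosphatases of mitotic entry the median was -0.84. BORA, with which Aurora A activates PLK1, measured 7.93 at 24 h and 9.16 in the control. PLK1 itself measured 7.94 at 24 h and 9.07 in the control, and CCNA2, cyclin A, 9.47 at 24 h and 10.60 in the control. The difference was -1.05 for AURKA, -0.85 for AURKB and -0.84 for CDK1. In the probe sets used, cyclin B genes differed less (CCNB1 -0.69, CCNB2 -0.57). The next-brightest probe sets gave -0.97 for CCNB1 and -1.09 for CDK1. CDC25B, a phosphatase that also acts before mitosis, was the exception at -0.16, with both values inside the hourly range. CDC25C, a phosphatase that activates CDK1, differed by -0.73.

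The 12 kinetochore and checkpoint genes had a median of -0.80, and all 12 were at least 1.5-fold lower. Behind KNL1, SGO1 and CENPE came SGO2 (-1.10), the checkpoint kinases BUB1B (-0.93) and BUB1 (-0.85), TTK (-0.75), the centromeric histone CENPA (-0.74), CENPF (-0.74), NDC80 (-0.72), MAD2L1 (-0.69) and NUF2 (-0.67). The 17 kinesin, spindle and cytokinesis genes had the lowest median, -0.97, with 7 at least 2-fold lower. KIF4A, a chromosome-bound kinesin, measured 9.61 at 24 h and 10.91 in the control. KIF23, of the central spindle, measured 8.42 at 24 h and 9.64 in the control, and its other bright probe set gave -2.40. That probe set measured 7.27 in the control but only 4.87 at 24 h, under the array's median of 4.94. CEP55 (-1.12), HMMR (-1.06), KIF14 (-1.02) and KIF18A (-1.01) were also 2-fold lower, and ECT2 (-0.38) differed least in that role. In the role of mitotic exit and chromosome structure the median was -0.81 over 8 genes. NCAPG, a condensin subunit (9.69 at 24 h, 10.69 in the control), and MKI67, the proliferation marker (9.24 at 24 h, 10.23 in the control), lay just outside 2-fold. The other 3 bright probe sets of MKI67 gave -1.28, -1.10 and -1.51. FOXM1, a transcription factor of G2/M genes, was at -0.87, and PTTG1, the securin, at -0.46.

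The promoters of the 2 genes of this list with the largest negative difference whose window holds TTTGAA are shown because that motif, the cell cycle homology region, and the CCAAT box are known from promoters of G2/M genes. Capitals mark TTTGAA and CCAAT on either strand, and each window runs from 250 bases before to 50 after the start in RefSeq on GRCh38.p14, plus strand for both. The KIF4A window is chrX:70289854-70290153, with CCAAT 58 and TTTGAA 34 bases before the start. The BORA window is chr13:72727673-72727972, with TTTGAA 177 bases and CCAAT 96 and 64 bases before the start.
KIF4A: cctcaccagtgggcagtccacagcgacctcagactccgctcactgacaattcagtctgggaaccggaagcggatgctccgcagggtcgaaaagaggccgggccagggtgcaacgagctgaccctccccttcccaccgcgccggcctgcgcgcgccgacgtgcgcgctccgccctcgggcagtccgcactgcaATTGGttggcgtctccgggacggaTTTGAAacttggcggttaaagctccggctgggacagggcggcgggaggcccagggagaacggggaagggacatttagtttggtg
BORA: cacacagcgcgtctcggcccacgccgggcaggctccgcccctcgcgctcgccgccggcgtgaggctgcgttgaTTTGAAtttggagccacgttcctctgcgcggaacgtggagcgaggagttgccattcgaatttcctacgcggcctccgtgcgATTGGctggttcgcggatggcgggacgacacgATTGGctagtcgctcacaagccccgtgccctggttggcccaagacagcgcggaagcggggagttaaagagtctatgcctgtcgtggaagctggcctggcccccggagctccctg

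TTTGAA was found on either strand in 32 of 51 windows of the measured G2/M and mitosis genes (62.7%), from 29 of the 40 genes with a window. Of all 35116 windows 15.2% held it. CCAAT was found in 76.5% of the list's windows and 34.6% of all windows, and both motifs together in 51.0% and 5.90%. Windows of the 86 genes lower at 24 h held TTTGAA in 30.9% and those of the 58 higher genes in 14.1%. A match is a description of the letters in these windows and not a binding site.

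DNA replication genes were lower too, by less. Of 32 measured genes 9 were at least 1.5-fold lower and none higher, with a median of -0.36. RRM2, the small subunit of ribonucleotide reductase, measured 11.92 at 24 h and 12.81 in the control, CDC45, part of the replicative helicase, 7.56 at 24 h and 8.30 in the control, and UHRF1 9.84 at 24 h and 10.57 in the control. MCM10 (-0.72), POLA1 (-0.69), CLSPN (-0.62) and MCM4 (-0.61) also passed 1.5-fold. CDT1, ORC1 and CHEK1, which license or guard origins, differed by -0.03 to 0.00. The next-brightest probe sets gave -0.36 for CDT1 and -0.10 for CHEK1. The pattern across arrays differed from that of mitotic genes. The 24 h value lay below all hourly arrays in 25 of the 32 genes, and the control lay inside the hourly range in 17. Over all 12402 genes those numbers were 1783 and 6331. The list's median, each gene centred on its mean over the 9 arrays, was -0.31 at 24 h and 0.07 in the control, and in the hourly arrays it ran from -0.20 to 0.16. Among 7 measured histone genes 1, H2AC6 (-0.63), was at least 1.5-fold lower, and the median was -0.27, with H2BC12 (-0.48), H2BC21 (-0.40), H2BC5 (-0.27), H3C8 (-0.17), H2AZ1 (-0.14) and H1-2 (-0.09) nearer to 0. E2F motifs (TTTCCCGC or TTTGGCGC, either strand) stood in 42.1% of the replication genes' windows and 2.27% of all windows.

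FOXO-type genes, listed as those raised when growth factors are withdrawn, had a median of 0.78 over 14 measured genes, and of 0.37 with no filter on dim genes. At least 1.5-fold higher were 8 of them, 3 by at least 2-fold, and none was 1.5-fold lower. KLF9, a Krüppel-like transcription factor, measured 7.81 at 24 h and 6.34 in the control, and its other bright probe set gave 0.90. YPEL3, linked to cell cycle arrest, measured 6.66 at 24 h and 5.46 in the control, but its other bright probe set gave 0.22. TP53INP1, an autophagy regulator also induced by p53, measured 6.61 at 24 h and 5.54 in the control. CCNG2, an unconventional cyclin of resting cells, measured 7.81 at 24 h and 6.84 in the control, the mitochondrial kinase gene PINK1 8.57 at 24 h and 7.64 in the control, and IRS2, an adaptor of the insulin receptor, 8.58 at 24 h and 7.77 in the control. YPEL5 (0.88) and BCL6 (0.75) also passed 1.5-fold. The cell cycle inhibitor CDKN1B (0.29), INSR (0.31), RBL2 (0.37) and TXNIP (-0.29) did not.

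The FOXO-type genes also varied among the exposed arrays. Their centred median was 0.30 at 24 h, -0.18 in the control, 0.25 at 1 h, 0.21 at 2 h and between -0.24 and -0.01 from 3 to 7 h. KLF9 measured 8.08 at 1 h and 6.01 at 5 h, so the control value of 6.34 lay inside the hourly range. The control was inside that range in 8 of the 14 genes and below it in 6. Over all 12402 genes the control was inside in 6331 and below in 2793.

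**Figure D3:**
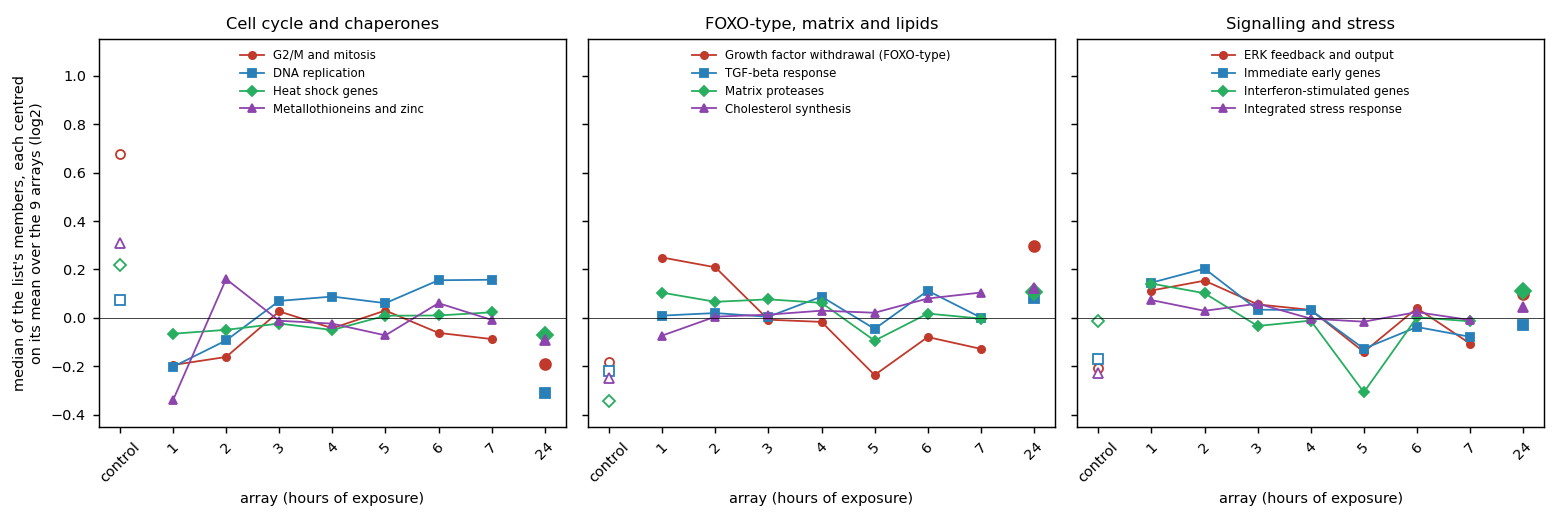
Centred median (log2, each gene centred on its mean over the 9 arrays) of 12 gene lists in the control array (open symbols), the 7 hourly exposed arrays (joined) and the 24 h exposed array (large filled symbols). The G2/M list stands at 0.68 in the control and -0.19 at 24 h, and the FOXO-type list is high at 1, 2 and 24 h.

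Some genes of the TGF-beta response and of matrix breakdown were higher. Of 15 measured TGF-beta response genes 4 were at least 1.5-fold higher and none lower, with a median of 0.39, which was 0.25 both with no filter on dim genes and in the mean over probe sets. Ligand and receptor genes did not move upward: TGFB1 measured 6.84 at 24 h and 7.27 in the control, TGFBR3 differed by -0.09 and TGFBR1 by 0.01. The feedback genes had a median of 0.50. SKIL, a repressor of SMAD signalling, measured 7.96 at 24 h and 6.92 in the control, with 0.26 in its other bright probe set. LTBP2, a matrix protein, measured 7.57 at 24 h and 6.89 in the control. PMEPA1 (0.55), BAMBI (0.50) and SMURF2 (0.39) were below 1.5-fold. Among the targets SNAI2, a transcription factor of mesenchymal cells, measured 4.94 at 24 h and 3.95 in the control, both under 5, and passed the filter through its hourly values. The targets IL11 (-0.11) and JUNB (0.28) differed little.

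In the related BMP pathway the median was -0.04 over 9 measured genes. The targets ID1 (-0.40), ID3 (-0.34), SMAD9 (-0.27) and ID2 (-0.22) were lower by less than 1.5-fold. NOG, a secreted BMP antagonist, measured 9.72 at 24 h and 8.86 in the control and was the only one of them past 1.5-fold. BMPR2 (0.33), SMAD6 (0.40), HEY1 (0.28) and BMP4 (-0.04) made up the rest.

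Of 14 measured genes of matrix proteases and their regulators 5 were at least 1.5-fold higher and none lower, with a median of 0.42. Besides MMP1 these were PLAU, the urokinase (10.84 at 24 h, 10.11 in the control), its receptor gene PLAUR (9.07 at 24 h, 8.36 in the control), the sheddase gene ADAM9 (11.56 at 24 h, 10.94 in the control) and RECK, a membrane inhibitor of metalloproteases (8.93 at 24 h, 8.33 in the control). The inhibitors TIMP2 (0.45), TIMP3 (0.40) and TIMP1 (0.22) were higher by less, and MMP14 (-0.13) and MMP24 (-0.16) were slightly lower. YAP and TEAD targets had a median of 0.16 over 9 genes, with NT5E (11.71 at 24 h, 10.70 in the control), the ecto-nucleotidase CD73, and AXL (0.83), a receptor kinase, past 1.5-fold. AXL's next-brightest probe set gave only 0.15. CCN1, a matricellular protein, differed by 0.57. AMOTL2 (0.24), CRIM1 (0.16), LATS2 (0.04), ARHGEF17 (0.03), AJUBA (-0.09) and TEAD1 (-0.16) lay nearer to 0.

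Epithelial and mesenchymal state genes showed no common shift, with a median of 0.13 over 16. On the epithelial side RBM47, the tight junction genes CLDN1 (8.25 at 24 h, 7.50 in the control) and CLDN4 (7.24 at 24 h, 6.54 in the control) were at least 1.5-fold higher. The next-brightest probe sets of CLDN1 and CLDN4 gave only 0.005 and 0.16. OCLN (0.25), KRT19 (0.19), KRT18 (0.17), KRT8 (0.13), KRT7 (-0.13) and TJP1 (-0.13) were not 1.5-fold higher. On the mesenchymal side SNAI2, dim in both arrays, was the only gene past 1.5-fold, and VIM (0.13), FN1 (0.08), CDH2 (0.02), CD44 (-0.04), SNAI1 (-0.21) and ZEB1 (-0.22) were not.

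Genes of ERK feedback and output were higher in part, and immediate early genes were not. Of 18 measured genes of ERK feedback and output 3 were at least 1.5-fold higher and none lower, with a median of 0.35. The feedback phosphatase DUSP6 measured 6.34 at 24 h and 5.42 in the control, and its other bright probe sets gave 0.81 and 1.10. SPRED1 (0.50), SPRY2 (0.47), SPRY4 (0.47), ERRFI1 (0.40), SPRY1 (0.38), SPRED2 (0.32) and DUSP7 (0.23), all restraints on receptor or RAS signalling, were higher by less than 1.5-fold, and DUSP5 was level. EMP1, a membrane protein, measured 12.10 at 24 h and 10.74 in the control, and ETV1 was the other output gene past 1.5-fold. CCND1, cyclin D1, differed by 0.52, while ETV5 (-0.27), PHLDA1 (-0.25) and EPHA2 (-0.05) were slightly lower.

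Of 21 measured immediate early genes none was 1.5-fold higher and 2 were lower, EGR1 (9.67 at 24 h, 10.31 in the control) and ATF3 (6.23 at 24 h, 6.86 in the control), with a median of 0.08. The other bright probe set of ATF3 gave -0.04. FOS measured 4.18 at 24 h and 4.33 in the control. FOS, EGR1 and ID2 were among the 5 genes that were 2-fold apart between the 24 h and the 1 h array: FOS measured 4.18 at 24 h and 6.77 at 1 h, EGR1 9.67 at 24 h and 11.71 at 1 h, and ID2, an inhibitor of differentiation factors, 7.22 at 24 h and 8.63 at 1 h. HES1, a Notch target, measured 7.35 at 24 h and 8.58 at 1 h. CLK1, a kinase of splicing factors, was the only one of these 5 that was higher at 24 h (8.88, against 7.81 at 1 h).

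Lipid and amino acid synthesis genes were higher in part. Of 15 measured cholesterol synthesis genes 14 were above 0, 4 by at least 1.5-fold, and none was 1.5-fold lower, with a median of 0.45. MSMO1, a sterol oxidase, measured 9.85 at 24 h and 8.86 in the control, INSIG1, the sterol-regulated brake on SREBP, 10.38 at 24 h and 9.51 in the control, HMGCS1, which makes HMG-CoA, 7.75 at 24 h and 6.90 in the control, and DHCR7, the last enzyme of cholesterol synthesis, 9.12 at 24 h and 8.36 in the control. The other bright probe sets of INSIG1, HMGCS1 and DHCR7 gave between 0.89 and 1.30. In 7 of the 15 genes the 24 h value was above all hourly arrays, against 2717 of all 12402 genes. Of 7 measured fatty acid genes SCD5 and SCD, both stearoyl-CoA desaturases, were at least 1.5-fold higher (median 0.33). SCD measured 12.69 at 24 h and 12.05 in the control, with at least 1.37 in its other bright probe sets, but SCD5, at 8.30 at 24 h and 5.90 in the control, had another bright probe set at -0.10. FASN (0.33), FADS2 (0.39), SREBF1 (0.18), ACACA (0.05) and ACLY (-0.06) stayed under 1.5-fold.

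Of 31 measured genes of the integrated stress response 6 were at least 1.5-fold higher and 1 lower, with a median of 0.14. The transcription factors ATF4 (10.99 at 24 h, 10.13 in the control) and CEBPB (9.91 at 24 h, 9.32 in the control), the cysteine-making enzyme gene CTH (8.60 at 24 h, 7.52 in the control), the asparagine synthetase ASNS (10.45 at 24 h, 9.52 in the control), the feedback pseudokinase TRIB3 (8.80 at 24 h, 8.08 in the control) and GARS1, which charges glycine tRNA (11.78 at 24 h, 11.12 in the control), were higher. ATF3 was the gene that was lower, in 1 of its 2 bright probe sets. Serine synthesis genes did not share the difference, with PSAT1 at 0.15, PHGDH at -0.03 and PSPH at -0.12, nor did DDIT3 (-0.06), the pro-apoptotic factor of the pathway. Among 17 measured endoplasmic reticulum stress genes none passed 1.5-fold either way (median 0.05).

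Of 18 measured NRF2 targets 4 were at least 1.5-fold higher and none lower, with a median of 0.17. The cystine transporter gene SLC7A11 measured 7.90 at 24 h and 6.42 in the control, with 1.51 in its other bright probe set. ME1, which makes NADPH, measured 9.67 at 24 h and 8.88 in the control, AKR1C1, an aldo-keto reductase, 11.00 at 24 h and 10.39 in the control, and AKR1C2 10.26 at 24 h and 9.66 in the control. HMOX1 (0.53), which breaks down heme, and GCLM (0.49), a subunit of the enzyme that starts glutathione synthesis, were below 1.5-fold, and TXNRD1 (0.13), NQO1 (0.20) and PRDX1 (-0.01) were near 0. The next-brightest probe set of GCLM, however, gave 0.99. In 15 of the 18 genes the control lay below all hourly arrays, against 2793 of all 12402 genes.

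Metallothioneins, small proteins that bind zinc and copper, were lower in all 7 measured members. MT1M measured 5.55 at 24 h and 8.88 in the control (10.1-fold lower), with hourly values from 4.88 to 6.94. MT1F (-0.57), MT1E (-0.53), MT1X (-0.46), MT1H (-0.38), MT1G (-0.37) and MT2A (-0.28) were lower by less than 1.5-fold. For all 7 the control was above every hourly array and the 24 h value inside the hourly range. Over all 12402 genes the control was above in 3278 and the 24 h value inside in 7902. These genes are close in sequence, so their probes may share signal. The zinc exporter SLC30A1 (10.06 at 24 h, 10.60 in the control) and the metal sensor MTF1 (7.89 at 24 h, 8.32 in the control) were lower too (-0.54 and -0.43), whereas the importer SLC39A10 was higher by 1.33. Metal response motifs (TGCGCNC or TGCACNC, either strand, N being any base) stood in 5 of 7 windows of this list and in 29.6% of all windows.

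Heat shock genes were lower in 13 of 14 measured members, 5 of them by at least 1.5-fold, with a median of -0.28. CHORDC1, a partner of HSP90, measured 9.77 at 24 h and 10.88 in the control. HSPA4L measured 7.46 at 24 h and 8.27 in the control, BAG3, a co-chaperone of HSP70, 9.93 at 24 h and 10.66 in the control, DNAJB4 6.24 at 24 h and 6.93 in the control, and DNAJA1 11.19 at 24 h and 11.79 in the control. The chaperone genes HSP90AA1 (-0.22), HSPD1 (-0.18) and HSP90AB1 (-0.19) differed by less than 1.5-fold, and HSPA4 (0.25) was the gene above 0. The control was above all hourly arrays in 11 of the 14, against 3278 of all 12402 genes.

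**Figure D4:**
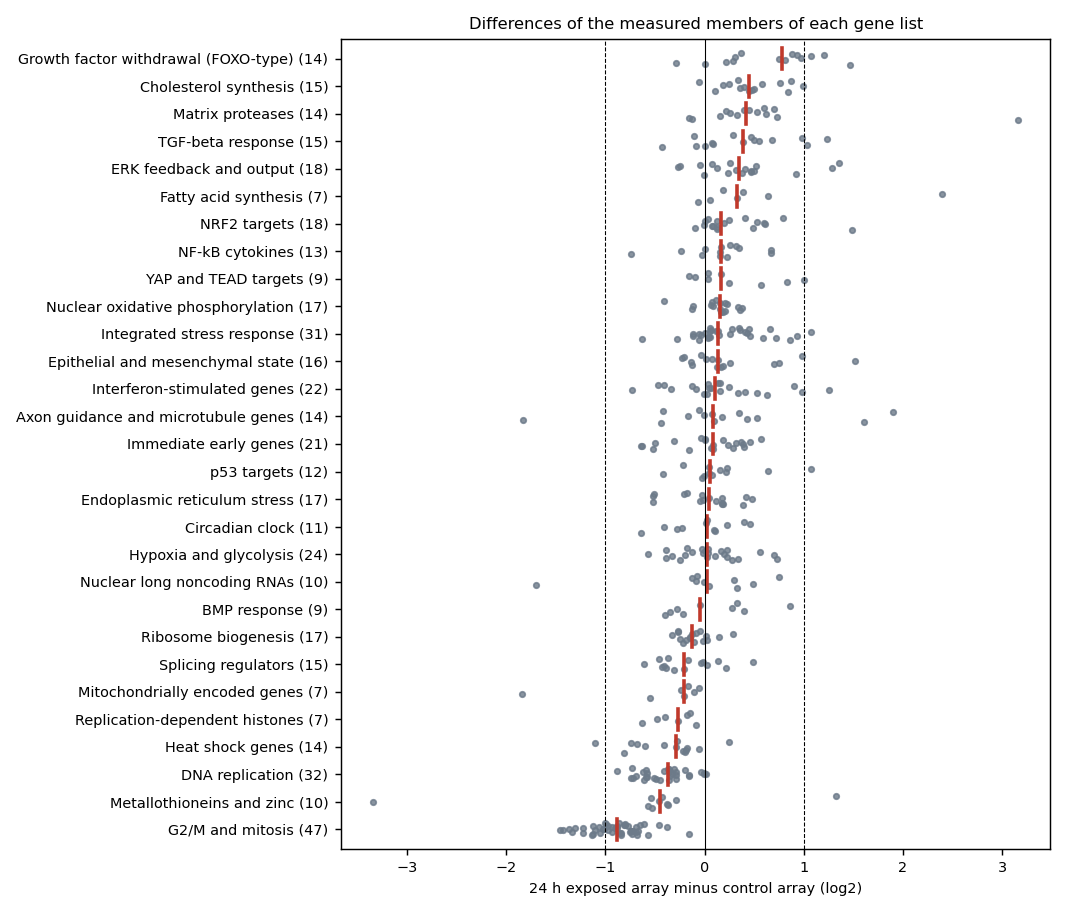
Difference (24 h minus control, log2) of each measured member (points) of the 29 pathway lists with at least 7 measured genes, with the list's median as a red bar and the number of measured genes in brackets. Lists are ordered by median, from 0.78 for the FOXO-type genes to -0.88 for G2/M and mitosis, and dashed lines mark 2-fold.

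Interferon-stimulated genes were divided. Of 22 measured genes 4 were at least 1.5-fold higher and 1 lower, with a median of 0.10. BST2, IFITM1 (11.49 at 24 h, 10.52 in the control), the RNA sensor gene IFIH1 (7.02 at 24 h, 6.12 in the control) and ISG15 (9.48 at 24 h, 8.85 in the control) were higher, and OAS3, an oligoadenylate synthetase, was lower (6.13 at 24 h, 6.86 in the control). The immunoproteasome genes PSMB8 (-0.47) and PSMB9 (-0.41) also lay below 0, IFIT1 (-0.01) and IFI6 (0.02) were level, and IFIT2 (0.52) and IFIT3 (0.33) were above 0. In the hourly arrays the centred median of this list was lowest at 5 h, at -0.31, and at 24 h it was 0.11, against -0.01 in the control. Among 13 measured NF-kB cytokine and feedback genes CXCL8 (10.55 at 24 h, 9.88 in the control), which attracts neutrophils, and the inhibitor NFKBIA (10.24 at 24 h, 9.56 in the control) were at least 1.5-fold higher and CXCL5 (10.10 at 24 h, 10.84 in the control) lower, with a median of 0.16. Of the 5 measured APOBEC3 deaminases APOBEC3G alone stood apart, at 7.42 at 24 h and 5.09 in the control, while the list's median was -0.05 and APOBEC3B (-0.13), APOBEC3D (-0.08), APOBEC3C (-0.05) and APOBEC3F (-0.01) were level. APOBEC3G had another bright probe set at 0.11.

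Other lists moved little. Hypoxia and glycolysis genes had a median of 0.03 over 24, with BNIP3L, a receptor for mitophagy (10.85 at 24 h, 10.12 in the control), and SLC2A3, a glucose transporter (5.36 at 24 h, 4.67 in the control), at least 1.5-fold higher. The control value of SLC2A3 lay under the array's median of 4.94. The p53 targets had a median of 0.06 over 12, and CDKN1A (-0.03), MDM2 (-0.01), XPC (0.04), RRM2B (0.05) and BAX (0.07) were level while TP53INP1 and ZMAT3 (0.64) passed 1.5-fold. FAS, a death receptor, differed by -0.42. No ribosome biogenesis gene of 17 and no nuclear oxidative phosphorylation gene of 17 passed 1.5-fold (medians -0.12 and 0.16). Mitochondrially encoded genes were below 0 in all 7 measured members, but only ND6, read from the other strand of the mitochondrial genome, passed 1.5-fold (8.56 at 24 h, 10.40 in the control). ND2 (-0.54), COX2 (-0.24), ND4 (-0.21), ATP6 (-0.16), COX1 (-0.10) and COX3 (-0.06) followed. Of 11 clock genes PER2 (7.95 at 24 h, 8.59 in the control) was the only one past 1.5-fold (median 0.03), with CLOCK at -0.41, CRY2 at -0.28, BMAL1 at -0.23, BHLHE40 at 0.40 and DBP at 0.46, and of 15 splicing regulators (median -0.20) TRA2A (8.66 at 24 h, 9.27 in the control). Nuclear long noncoding RNAs had a median of 0.02 over 10, with FTX (-1.70) lower and EPB41L4A-AS1 (0.75) higher by at least 1.5-fold, and JPX (0.49), MALAT1 (0.32), OIP5-AS1 (0.29), TUG1 (-0.08) and GAS5 (-0.13) under it. The next-brightest probe set of EPB41L4A-AS1 gave -0.09. Of 14 measured axon guidance and microtubule genes MAP2 (1.90), a microtubule-associated protein, and the guidance receptor gene ROBO4 (1.61) were higher and NAV2 (-1.83), a neuron navigator, lower by at least 2-fold (median 0.09), and SEMA3C (0.52), SEMA3A (0.42), ROBO1 (-0.44) and STMN1 (-0.42) came next.

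The 2 values of each gene were placed against the hourly range as a description, since the genes were chosen by the difference between these 2 arrays. Among the 58 higher genes the control was below all 7 hourly arrays in 50 and inside their range in 8. Among the 86 lower genes it was above all of them in 72 and inside in 14. The 24 h value lay inside the hourly range in 25 of the higher and 47 of the lower genes. Over all 12402 genes the control lay inside the hourly range in 51.0% and the 24 h array in 63.7%. The control lay below that range in 2793 of these genes and above it in 3278. With 1 control array, a difference made by the exposure and one of the control sample itself cannot be told apart.

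Transcripts that are not protein-coding were frequent among the lower genes. They made up 18 of the 86 lower genes (20.9%), 3 of the 58 higher genes (5.17%) and 7.46% of all genes. FTX, a long noncoding RNA of the X inactivation centre, measured 7.13 at 24 h, 8.83 in the control and 9.60 at 5 h. The pseudogenes RPS16P5 (5.73 at 24 h, 7.37 in the control, 7.79 at 5 h) and GTF2H2B (7.53 at 24 h, 9.10 in the control, 9.27 at 5 h) and the gene ND6 (8.56 at 24 h, 10.40 in the control, 10.57 at 5 h) showed the same order. All 14 lower genes whose control value lay inside the hourly range had their highest hourly value at 5 h, and 7 of the 14 were not protein-coding. The highest hourly value was at 5 h in 50 of all 86 lower genes and in 1510 of all 12402 genes. Without the 5 h array, a choice made after the data had been seen, the control was above the remaining hourly arrays in all 86. Over all 12402 genes the control was above them in 3525. The 5 h array also had the largest ACTB 3' to 5' difference (2.24), and the probe set for Alu repeats measured 14.05 at 24 h, 14.37 in the control and 14.29 at 5 h. DLEU2, a long noncoding RNA, was lower in both of its bright probe sets (-1.37 and -2.09), with 6.37 at 24 h, 7.73 in the control and 6.71 to 7.47 in the hourly arrays, so that its control stood above all exposed arrays. Median differences by chromosome ran from -0.01 to 0.07 over 23 chromosomes.

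Agreement between probe sets of 1 gene served as a check of the probe set, not of the cells. Of the 31 higher genes with another bright probe set, 26 had every other one of the same sign and 21 had another at least 1.5-fold higher. Of the 38 such lower genes the numbers were 33 and 27. Over all 5849 genes with another bright probe set, 55.7% had every other one of the same sign and 10.1% another at least 1.5-fold the same way. Most of these genes lie near 0, so the contrast with genes chosen by size is partly built in. Among genes at least 1.5-fold higher, which include the 2-fold ones, the shares were 78.8% and 43.5%. For those at least 1.5-fold lower they were 79.8% and 50%. Higher genes borne by several probe sets included DHRS2, SLC7A11, CCL5, EMP1 (1.31 to 2.00 in 3 others, -0.23 in the fourth), ITGB4 (0.20 to 1.65) and KLHL24 (1.60 and 1.71 in 2 others, -0.45 in the third). Lower ones included LOC100190986 (-1.67 and -2.08), FTX (-1.70 and -1.55), CIP2A, an inhibitor of PP2A (-1.23 and -1.26), CDCA3, a mitotic entry factor (-1.21 and -1.39), and the ubiquitin ligase gene G2E3, lower in all 5 (-0.51 to -1.23). The other probe sets of LOC100190986 and FTX were dim at 24 h, at 4.93 and 4.73, under the array's median of 4.94. LOC100190986 also had its highest hourly value at 5 h (8.15, against at most 7.19 in the other hourly arrays). Genes whose other bright probe sets stayed near 0 included SCD5, APOBEC3G, ROBO4 (0.15), NAV2 (-0.04 and -0.18), PARD6G-AS1 (0.07) and CSAD (0.12), so that the value of each rests on 1 probe set. MMP1, LYZ, MAP2, MT1M, NIBAN1 and KIF20A had no other bright probe set.

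**Figure D5:**
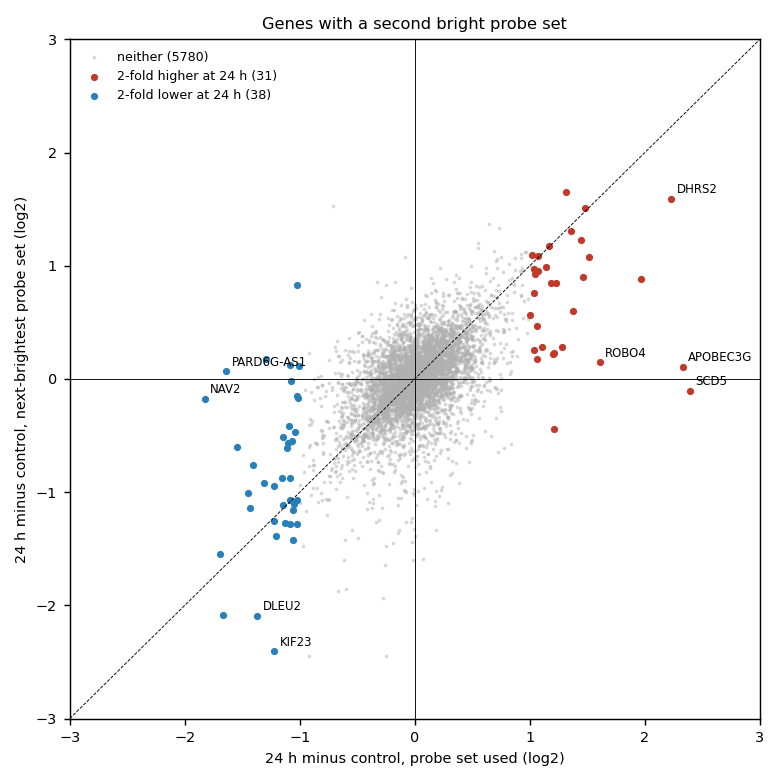
Difference (24 h minus control, log2) of the probe set used for a gene (horizontal) against that of its next-brightest probe set (vertical) for 5849 genes with another bright probe set. Red points are the 31 genes at least 2-fold higher and blue points the 38 at least 2-fold lower, and SCD5, APOBEC3G, ROBO4, NAV2 and PARD6G-AS1 are among those that lie close to 0 on the vertical axis.

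Markers of other cell types were measured in part, and some of them were higher at 24 h. Of 15 stellate cell and fibroblast markers 7 had means under 5. Among the 8 measured, COL1A2 (11.34 at 24 h, 10.30 in the control), COL6A3 (9.41 at 24 h, 8.40 in the control) and COL3A1 (6.26 at 24 h, 5.28 in the control) were higher, RGS5, a pericyte gene, measured 12.26 at 24 h and 11.85 in the control, and COL1A1 (7.33 in both arrays), THY1 (-0.02) and ACTA2 (0.06) were level. The bright probe sets of COL1A2 disagreed, since the others gave from -0.26 to 0.76. Summed on the linear scale the 15 markers came to 8829 at 24 h and 5880 in the control, with 7512 to 8360 in the hourly arrays. COL1A2 and RGS5 held most of it, and the other 13 markers, split off after the values had been seen, came to 1324 at 24 h and 932.3 in the control, with 1190.0 to 1304 in the hourly arrays. Of 10 leukocyte markers 5 were measured. LYZ, lysozyme, measured 8.14 at 24 h and 5.70 in the control, LAPTM5 was higher by 0.67, and CD14 (0.46), CD79A (0.19) and CD74 (0.08) followed. Of 10 endothelial markers TEK (0.63), EGFL7 (0.54), EMCN (0.22) and PECAM1 (0.16) were measured, and of 11 acinar, ductal and islet markers CELA3A (0.04), SOX9 (0.13) and KRT19. Their part in the results was not tested.

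Around the 2-fold threshold the genes just inside were NT5E, COL6A3 and NFE2L3 (2.01-fold to 2.02-fold) on the higher side, and PSMD6-AS2, KIF18A and CSAD (all -1.01) on the lower side. Just outside were TIAM2, CARD16 and ALDH7A1 on the higher side and ANKHD1, NCAPG and MKI67 on the lower side, all 2.00-fold apart after rounding.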

How the data were processed

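Groups were taken from the labels, 1 array each. The authors deposited log2 values from RMA, per the submitters' processing notes. RMA removes background, brings the arrays to 1 distribution and sums up the probes of a probe set; the sources used here do not give its version. Arrays carry no read depth, and their number limits the precision. Names came from the platform's annotation: 41097 of 54675 had 1 gene symbol, 1801 several and 11777 none, and 41043 were matched by Entrez ID to RefSeq on GRCh38.p14. For each gene the single-symbol probe set brightest on average in the 9 arrays was used, and those averaging 5 or more were retained. List members without such a probe set were left out.

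The difference is the 24 h array minus the control, with no test; 2-fold and 1.5-fold describe its size. The members and the 35 lists were chosen with earlier results of these data known. Genes eligible to be named were the 25 highest and 25 lowest, in each list those 2-fold apart and up to 4 with the largest differences (every measured member of lists or roles of up to 12), 12 genes a direction with another probe set 1.5-fold the same way, and 3 on each side of 2-fold. Naming of further list members followed a look at their values. Proteins were not analysed here. Promoter windows came from RefSeq, every listed start counted.

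The alternatives were no filter, a mean of at least 6, a mean of at least 5 over the 2 arrays, the mean over probe sets, probe sets ending in _at alone, another quantile normalization, a shift to 1 median, loess (span 0.4), the authors' filtered table of 6370 probe sets and protein-coding genes alone. Leaving out the 5 h array was added after the data had been seen. With no replicates, how far hourly arrays scattered from a straight line stood in for the spread in judging whether a value moved. The choice of probe set, the filter and the count were tested on simulated data of 12413 genes, 200 of them changed. All 200 were recovered, but the added differences were well above 2-fold and rival probe sets dimmer, so this was largely set in advance. Among the unchanged genes 19 came out 2-fold apart. Their spread was simulated from the hourly arrays, so this gives no chance rate for the real pair. Python 3.11.15, pandas 2.3.3, numpy 2.4.6, statsmodels 0.14.6 and matplotlib 3.10.9 were used.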

Additional observations from a re-analysis of the deposited data

Results flagged for a closer look

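Both results below come from probe sets outside the comparison of genes. The mean of the 12 poly-A control probe sets, which report transcripts that the cells do not make, was 1.97 higher at 24 h than in the control (7.88 at 24 h, 5.91 in the control). The 4 transcripts differed by 2.06 (dap), 2.02 (lys), 1.98 (phe) and 1.82 (thr). The 9 hybridisation control probe sets differed by 0.22.

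Among 3166 bright probe sets with no gene symbol, 10 were at least 2-fold higher at 24 h than in the control (0.316%) and 279 at least 2-fold lower (8.81%). Of the 279, 267 had their highest hourly value at 5 h, against 1089 of all 3166. Their median was 5.36 at 24 h, 6.87 in the control and 7.09 at 5 h, with 5.32 to 5.95 in the other hourly arrays. The control was above those 6 arrays in 277 of the 279, and in 1124 of all 3166. Probe sets with several symbols gave 7 higher and 18 lower of 1116. What these probe sets measure, and the part of this in the results for genes, was not tested.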

How the results depend on the processing

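Of the counts recomputed under the alternatives 46 stayed within 1.5 times their value and 2 did not: 229 of 2169 genes (10.6%, against 3.15%) were at least 1.5-fold higher in the authors' filtered table, and 16 of 21 lower genes, against 27 of 38, had another probe set 1.5-fold the same way at a mean of at least 6. Both alternatives test fewer genes. Of the list medians 293 stayed within the spread, 40 moved and 1 reversed. With no filter the medians were 0.25 (TGF-beta response), 0.37 (FOXO-type), 0.058 (stellate cell and fibroblast markers), 0.28 (leukocyte markers) and 0.19 (endothelial markers). At a mean of at least 6 the stellate median was 0.70. In the mean over probe sets the TGF-beta response gave 0.25 and the FOXO-type list 0.68. With probe sets ending in _at alone the medians were 0.38 (cholesterol synthesis), 0.18 (fatty acid synthesis), 0.56 (FOXO-type), -0.44 (splicing regulators), 0.19 (stellate markers) and 0.19 (leukocyte markers). In the authors' filtered table they were -0.56 (metallothioneins and zinc), 0.72 (matrix proteases), 0.66 (ERK feedback and output), -0.79 (heat shock genes), 0.97 (FOXO-type) and -0.59 (splicing regulators), and the stellate median reversed to -0.26, since 3 of its genes are held there. COL1A2 reversed to -0.26 with probe sets ending in _at alone and in that table, where another of its probe sets is used. Of 69 named genes 2-fold apart 17 fell under 2-fold in some alternative, 12 of them in the mean over probe sets. No paired analysis was possible because each group held 1 array. With 1 array a side, none of these alternatives measures the spread between cultures.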

Other observations

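Further genes were picked out here after their values had been seen. Mitotic genes outside the list were also among those at least 2-fold lower at 24 h. They include PSRC1 (-1.25) and SPAG5 (-1.06), which bind spindle microtubules, CDCA8 (-1.24), a subunit of the chromosomal passenger complex, SPC24 (-1.09) and SPC25 (-1.10), both subunits of the NDC80 complex, ZWINT (-1.04), a kinetochore protein, and RACGAP1 (-1.02), of the central spindle. SPC24's next-brightest probe set gave 0.12. HELLS (-1.15), a chromatin remodeller, and POLH (-1.09), a translesion polymerase, were lower too.

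Zinc finger genes of the lower group were ZNF519, ZNF431, ZNF780B and ZNF493, from -1.31 to -1.15. ZNF519 was dim, at 4.26 at 24 h, under the array's median of 4.94. It measured 5.57 in the control and 5.79 at 5 h, with 4.47 to 5.18 in the other hourly arrays, so its control lay inside the hourly range. ZNF431 measured 5.82 at 24 h and 7.14 in the control, with -0.92 in its other bright probe set.

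Among the higher genes SERPINA3, a secreted protease inhibitor, measured 12.92 at 24 h, above every hourly array, and 11.73 in the control, inside the hourly range. IGFBP4, which binds insulin-like growth factors, was higher by 1.18, the lysosomal protease gene CTSC by 1.16, SCNN1A, a sodium channel subunit of epithelia, by 1.06, and NFATC1, a transcription factor activated by calcineurin, by 1.07. The next-brightest probe set gave 0.47 for SCNN1A and 0.18 for NFATC1. ITGA10, an integrin chain that binds collagen, measured 7.84 at 24 h and 6.79 in the control.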
